A study of Mus musculus with 32 samples.

Results

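The respiratory chain and ATP synthase subunits described here are 109 protein-coding genes among the 35968 genes to which reads were assigned: 96 in the nucleus and the 13 protein genes of mitochondrial DNA. They were chosen by symbol: genes starting Nduf, Uqcr or Atp5, the genes Sdha to Sdhd, Cyc1 and Cycs, the Cox4i, Cox5, Cox6, Cox7 and Cox8 subunits, and the mt-Nd, mt-Co, mt-Cytb and mt-Atp genes. Another 12 genes with matching symbols are not protein coding and were left out. Their RNA was measured in sorted CD4 T cells from the liver and the spleen of male C57BL/6 mice with genotype Foxp3GFP, in which green fluorescent protein reports the transcription factor Foxp3. Regulatory T cells (Treg) were gated as TCRb+CD4+Foxp3+ and conventional T cells (Tconv) as TCRb+CD4+Foxp3-. The 8 groups were liver Treg after CCl4 (n = 5) and liver Treg of control mice (n = 3), liver Tconv after CCl4 (n = 5) and control (n = 3), spleen Treg after CCl4 (n = 5) and control (n = 3), and spleen Tconv after CCl4 (n = 5) and control (n = 3). CCl4 (carbon tetrachloride) is a liver toxicant used to cause injury and fibrosis. Its dose and duration, the age of the mice and what the controls received are not given in the labels. No source states whether replicate libraries were made from different mice, so p-values measure only the spread between samples, which may be technical. The cells were sequenced in bulk, so less RNA per cell and fewer cells that carry it cannot be told apart.

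The respiratory chain passes electrons from NADH (complex I) and succinate (complex II) through coenzyme Q to complex III, cytochrome c and complex IV, where oxygen is reduced, and complexes I, III and IV pump protons across the inner mitochondrial membrane. ATP synthase lets the protons return and makes ATP. Subunits of complexes I, III and IV and of ATP synthase come from both genomes, while complex II and cytochrome c are encoded by nuclear genes only, so assembly needs both genomes to be expressed. Mouse Treg are known to rely on respiration, and complex III is known to be needed for their suppressive function.

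Library totals ran from 24513124 to 75292019 estimated counts. Foxp3 stood at 909 to 1176 CPM (counts scaled to library size) in the Treg libraries and at 0.68 to 3.43 CPM in the Tconv libraries, so no library went against its label. The 5 T cell markers summed to 3190 to 4991 CPM and none was at 0. The 12 hepatocyte markers summed to 139 to 564 CPM in liver and 2.81 to 29.9 CPM in spleen libraries, with Trf the largest of them in all 16 liver libraries. Summed pancreatic enzyme genes were at 1217 CPM in liver Treg control 1 and at most 60.0 CPM elsewhere. Summed immediate early genes such as Fos and Jun were at 1268 to 1691 CPM in the spleen control libraries numbered 2 and 3 of both cell types and at least 6502 CPM in all others.

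As levels comparable between genes (TPM, which divides by transcript length before scaling), the mitochondrial genes led. The 3 mitochondrially encoded core subunits of complex IV, mt-Co3, mt-Co2 and mt-Co1, averaged 4756, 2604 and 2330.1 TPM over the 32 libraries, and mt-Atp6, the proton channel subunit a of ATP synthase, 2974 TPM. mt-Cytb, the haem-carrying subunit of complex III, averaged 1515 TPM. The mitochondrial complex I genes were lower, from 179 TPM for mt-Nd2 to 835 TPM for mt-Nd1. Among nuclear genes Atp5b, the catalytic beta subunit of ATP synthase, was highest at 1022 TPM (range over libraries 835 to 1177). It was followed by the complex IV subunits Cox4i1 (741 TPM), Cox6a1 (729.6 TPM) and Cox8a (688 TPM). The 4 complex II genes ranged from 69.9 TPM for Sdhc, a membrane anchor, to 275 TPM for Sdha, which oxidises succinate. Cycs, the mobile electron carrier cytochrome c, averaged 56.9 TPM. The 8 complex I assembly factors (Ndufaf genes), which build the complex and are not part of it, lay between 11.4 TPM for Ndufaf4 and 67.6 TPM for Ndufaf8, below every complex I subunit except Ndufb4 (39.9 TPM).

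Isoforms known from other tissues were near 0. Cox4i1 stood at 741 TPM against 0.128 TPM for Cox4i2, a lung and hypoxia isoform, and Cox6a1 at 729.6 TPM against 0.0768 TPM for Cox6a2, a muscle isoform. Cox7a1, another muscle isoform, reached 2.07 TPM against 248 TPM for Cox7a2. Cox8b and Cox8c were listed at 0 in all 32 libraries. Ndufa4, whose protein sits in complex IV and was counted there, averaged 384 TPM and its paralogue Ndufa4l2 0.0186 TPM. In all, 102 members (89 nuclear and 13 mitochondrial) passed the filter on low counts and were tested. The 7 left out were Cox4i2, Cox6a2, Cox7b2, Cox8b, Cox8c, Ndufa4l2 and a second gene of the symbol Atp5o (chr16:91684398-91926982, minus strand), whose 530-base transcript shares 94% of its 31-base words with other genes.

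Several members share sequence with copies elsewhere in the genome, and the division of reads between them is uncertain. Of the joint counts of a member and its copies, the copies held 65.7% for Atp5g2, 44.3% for Cycs and 42.4% for Ndufb4. The largest shares among the mitochondrial genes were 21.7% for mt-Co1 and 19.8% for mt-Atp6. mt-Atp6, mt-Co2, mt-Co3, mt-Nd3 and mt-Nd4l share between 98.1% and 100% of their own 31-base words with other genes. The nuclear copy held 7.99% of the joint counts for mt-Co3, 0.0217% for mt-Co2, and 0 counts for mt-Nd3, mt-Nd4 and mt-Nd4l.

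Nuclear respiratory factor 1, a transcription factor known to regulate many nuclear genes of the chain, binds the palindrome GCGCATGCGC. RefSeq promoter windows on GRCm38.p6, 250 bases before to 50 bases after a gene's start, matched 75 of the 95 nuclear symbols. The palindrome, which reads the same on both strands, stood in 7 of the 75 windows (9.33%), against 2.00% of the windows of the 12124 genes tested that had one and 0.971% of all 32851 windows. It lay in the windows of Atp5g2, Atp5k, Cox6a1, Ndufa11, Ndufaf4, Ndufaf5 and Uqcrc1. Searched on both strands, CCGGAAG (the ETS family core bound by GABP) was in 24% of the 75 windows against 17.3% of those of genes tested, AAGATGGC (YY1) in 13.3% against 4.58%, and GGGCGG (Sp1) in 45.3% against 61.7%. A match describes these letters and does not show a bound site. The 4 stretches below, written in the direction of transcription, show the palindrome in capitals before the gene's start. It also ends 50 bases before the start of Ndufa11. That stretch is not printed because its orientation could not be checked against an annotated transcript. In Ndufaf5 and Uqcrc1 the palindrome lies after the start.
Atp5g2 promoter (chr15:102671055-102671114, minus strand): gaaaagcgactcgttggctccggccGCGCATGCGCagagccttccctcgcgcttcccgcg
Atp5k promoter (chr5:108434415-108434474, minus strand): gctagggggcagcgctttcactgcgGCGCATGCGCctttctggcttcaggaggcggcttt
Cox6a1 promoter (chr5:115349086-115349145, minus strand): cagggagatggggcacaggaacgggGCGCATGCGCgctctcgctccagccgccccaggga
Ndufaf4 promoter (chr4:24897945-24898004, plus strand): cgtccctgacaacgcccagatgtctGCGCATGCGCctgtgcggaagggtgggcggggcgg
The palindrome ended 32, 40, 152 and 103 bases before the start of Atp5g2, Atp5k, Cox6a1 and Ndufaf4.

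Most members were lower in liver Treg than in spleen Treg. Summed over the 96 nuclear members, RNA reached 7923 ± 418 CPM in liver Treg and 9999 ± 523 CPM in spleen Treg after CCl4 (mean ± SD, 5 libraries each), and 7100.0 ± 173 CPM in liver Treg and 10072 ± 904 CPM in spleen Treg of control mice (n = 3 each). No liver Treg library reached the lowest spleen Treg library. In edgeR's quasi-likelihood fit of the 8 groups, with Benjamini-Hochberg adjustment over all 17159 genes tested and a call at an adjusted p under 0.05, 86 of 102 members were lower in liver Treg and 2 were higher. Of all genes tested, 30.5% were called lower and 30.1% higher. The median log2 fold change was -0.49 for the members and 0.04 for all genes. This comparison and the others between tissues or cell types give the CCl4 and the control difference equal weight.

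**Figure D1:**
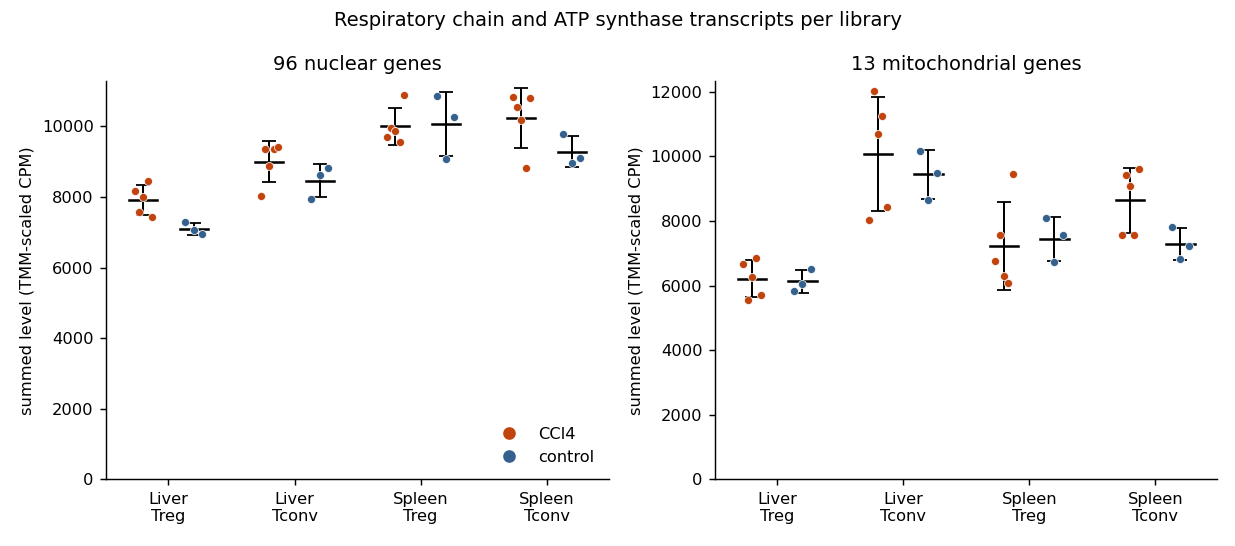
Summed CPM of the nuclear members and of the 13 mitochondrial members in each library; points are libraries and bars are group means ± SD. Nuclear sums of liver Treg span 7425 to 8442 CPM after CCl4 and 6945 to 7286 CPM in controls, below all spleen Treg libraries (9087 to 10889.7 CPM).

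All 36 nuclear complex I subunits were lower in liver Treg, with log2 fold changes of -1.13 to -0.22 and a median of -0.63. Ndufs7 (chr10:80249121-80256794, plus strand, GRCm38), a core subunit that carries an iron-sulfur cluster next to the coenzyme Q site, had a lowest, median and highest value of 60.0, 63.5 and 69.6 CPM in the 8 liver Treg libraries and 106, 108 and 118 CPM in the 8 spleen Treg libraries. The tissues did not overlap, and Ndufs7 was lower in liver (log2 fold change -0.80 ± 0.06 SE, adjusted p = 2.21e-12). Ndufb4, an accessory subunit of the membrane arm, had the largest difference of any member called at 9.01, 11.4 and 14.9 CPM in liver against 20.3, 23.5 and 27.6 CPM in spleen Treg (log2 fold change -1.13 ± 0.10 SE, adjusted p = 4.93e-11). The level of Ndufb4 is uncertain through its copies, as given above. Ndufb10 and Ndufs6, accessory subunits of the membrane arm and of the NADH-oxidising arm, were lower, with log2 fold changes of -0.70 ± 0.07 (adjusted p = 1.09e-09) and -0.88 ± 0.09 (adjusted p = 1.37e-09). Of the 8 assembly factors 6 were lower, led by Ndufaf1 (-1.02 ± 0.12, adjusted p = 2.93e-08), which is known to act in an early assembly intermediate of the membrane arm.

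In complex II, 3 of 4 genes were lower, with log2 fold changes of -0.48 for Sdhb, the iron-sulfur subunit, -0.53 for Sdhc and -0.43 for Sdha, and -0.02 for Sdhd (adjusted p = 5.77e-09, 4.37e-06, 4.94e-09 and 0.783). In complex III 8 of 9 were lower (median -0.47). Cyc1, which hands electrons from complex III to cytochrome c, stood at 116, 128 and 137 CPM in liver and 172, 179 and 191 CPM in spleen Treg as lowest, median and highest (log2 fold change -0.49 ± 0.04 SE, adjusted p = 1.22e-10). In complex IV 11 of 14 tested members were lower, with a smaller median of -0.35. ATP synthase had 16 of 17 lower (median -0.36).

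The member of smallest adjusted p was Atp5g1 (chr11:96068852-96075670, minus strand), one of 3 genes that encode the same mature subunit c of the rotor ring. Its lowest, median and highest values were 56.9, 66.0 and 79.3 CPM in liver Treg and 112, 128 and 157 CPM in spleen Treg, without overlap (log2 fold change -0.997 ± 0.07 SE, adjusted p = 5.61e-13). Atp5g3 was also lower (-0.32 ± 0.07, adjusted p = 0.000195), by less on the log2 scale; the difference between the 2 genes was not tested. As a share of the summed TPM of the 3 subunit c genes, Atp5g1 made up 28.4% ± 1.21 (SD, 5 libraries) for liver Treg and 40.1% ± 1.21 in spleen Treg after CCl4, and 29.2% ± 0.674 in liver Treg and 39.2% ± 0.434 in spleen Treg of controls (n = 3 each). In Tconv the share was 34.5% ± 0.837 in liver and 40.4% ± 1.60 in spleen after CCl4, and 36.0% ± 1.11 in liver and 42.3% ± 0.869 in spleen of controls. Every liver library of a cell type and treatment lay below every spleen library, and every liver Treg library below every liver Tconv library. The level of Atp5g2 is uncertain through its copies, as given above. Atp5g2 is part of the sum, so the shares of Atp5g1 carry this uncertainty as well.

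The 13 mitochondrial genes did not follow as 1 block. In liver against spleen Treg, 5 were lower (mt-Nd1, mt-Nd3, mt-Cytb, mt-Co1 and mt-Co3) and 2 were higher (mt-Nd5 and mt-Nd6). mt-Nd3 had the largest difference (-0.94 ± 0.15, adjusted p = 5.74e-06), in a gene that shares 98.1% of its 31-base words with other genes and whose nuclear copy was assigned 0 counts in all libraries. mt-Nd6, the one protein gene on the light strand of mitochondrial DNA, was higher by 0.36 ± 0.15 (adjusted p = 0.0459), a call lost in 10 of 16 fits that each left out 1 library. The sources used here give no strand setting, so whether the reads counted for mt-Nd6 come from its own strand is not known.

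In Tconv fewer members were called between the tissues, with 49 nuclear members lower and 2 higher in liver and 6 mitochondrial members higher and 0 lower. In liver against spleen Tconv 49 of 102 members were lower and 8 were higher, where 27.7% of all genes were called lower and 27.2% higher. The median was -0.19 for the members and 0.04 for all genes. With size factors of DESeq2 in place of TMM (trimmed mean of M values) scaling the split was 44 lower and 14 higher. The nuclear sum was 9005 ± 583 CPM in liver and 10239.7 ± 839.8 CPM in spleen Tconv after CCl4, and 8461 ± 462 CPM in liver and 9289 ± 447 CPM in spleen of controls. The sums overlapped between the tissues after CCl4 and lay apart in controls. The mitochondrial sum was 10083 ± 1763 CPM in liver against 8646 ± 1007 CPM in spleen Tconv after CCl4, and 9439.5 ± 758 CPM in liver Tconv against 7278 ± 492 CPM in spleen Tconv of controls. These sums also overlapped after CCl4 and lay apart in controls.

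In complex I 30 of 36 subunits (median -0.36) and 5 of 8 assembly factors were lower in liver Tconv. Ndufs7 had a lowest, median and highest value of 63.3, 77.4 and 84.5 CPM in liver and 93.0, 111 and 127 CPM in spleen Tconv (log2 fold change -0.57 ± 0.06 SE, adjusted p = 2.15e-09). Ndufa8, an accessory subunit, was lower (-0.61 ± 0.07, adjusted p = 8.04e-09), and so was Ndufaf1 (-1.07 ± 0.12, adjusted p = 1.56e-08). In complex IV 2 of 14 were lower (median 0.00), and in ATP synthase 5 of 17 (median -0.12). Complex III had 4 of 9 lower, Cyc1 among them (-0.37 ± 0.04, adjusted p = 3.12e-08), and 1 higher, Uqcrfs1, the Rieske iron-sulfur protein (0.17 ± 0.07, adjusted p = 0.04).

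The other members higher in liver Tconv were Cycs and 6 mitochondrial genes, mt-Nd1, mt-Nd2, mt-Nd4, mt-Co1, mt-Co2 and mt-Atp6. Cycs (chr6:50562563-50566538, minus strand) stood at 89.8, 94.5 and 104 CPM in liver and 58.5, 81.7 and 88.9 CPM in spleen Tconv as lowest, median and highest (log2 fold change 0.39 ± 0.08 SE, adjusted p = 0.000106). In Treg the same gene was lower in liver, at 55.7, 59.3 and 66.1 CPM in liver and 58.8, 80.6 and 83.8 CPM in spleen (log2 fold change -0.33 ± 0.08 SE, adjusted p = 0.00082). Its copies take 44.3% of the joint counts. mt-Atp6 was higher by 0.66 ± 0.14 (adjusted p = 0.000289) and mt-Co1 by 0.33 ± 0.07 (adjusted p = 0.000301) in liver Tconv.

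**Figure D2:**
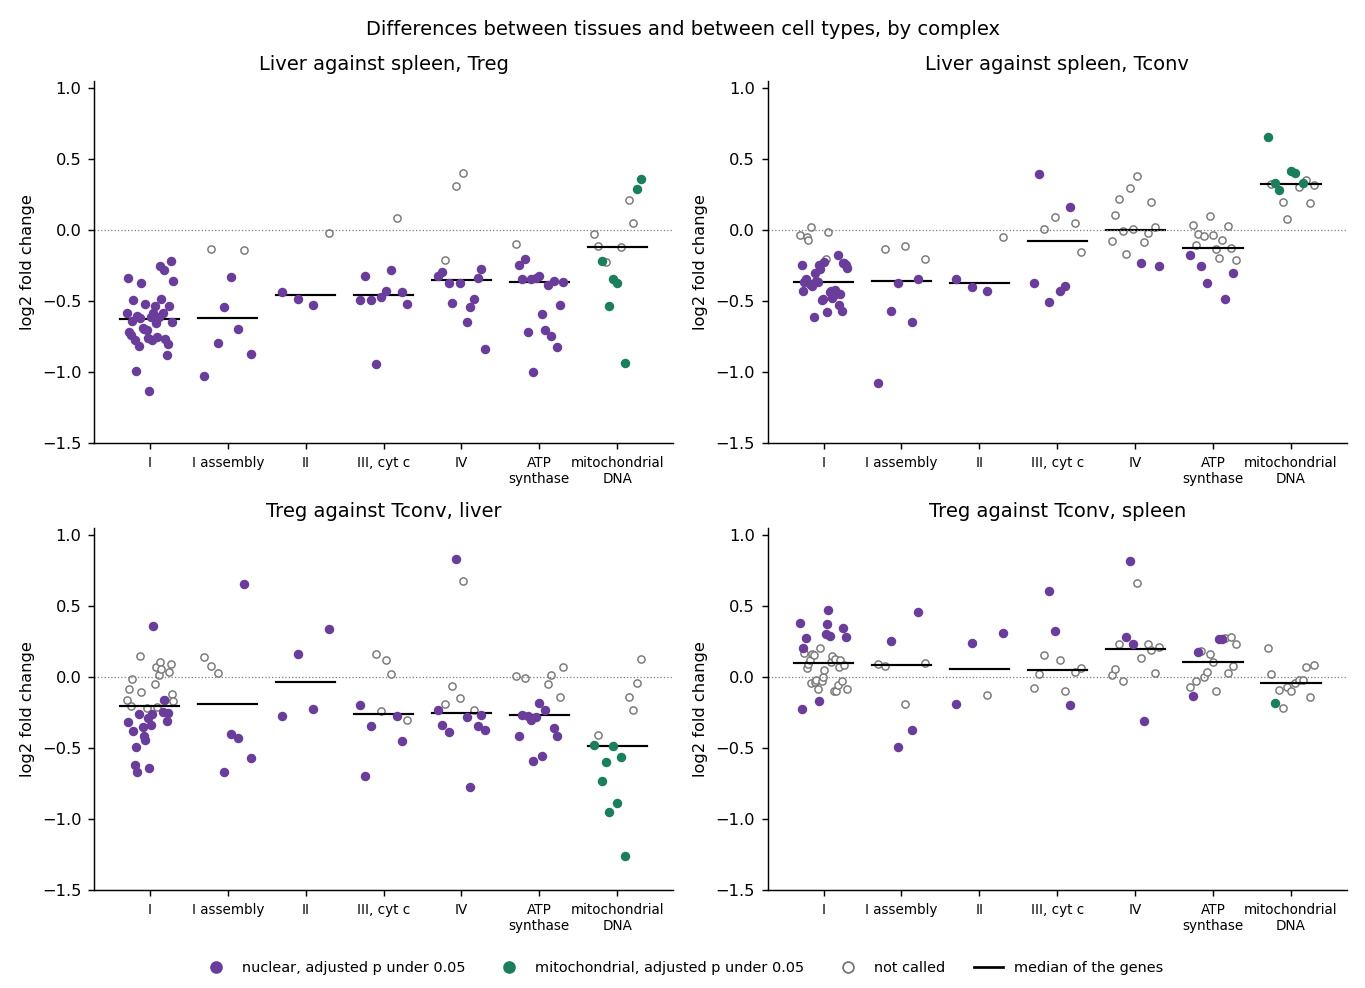
Log2 fold changes of the 102 tested members by complex and genome, liver against spleen and Treg against Tconv; each point is a member, filled where its adjusted p is under 0.05. All 36 nuclear complex I points of liver against spleen Treg lie below 0, at -1.13 to -0.22.

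Of the 86 members lower in liver Treg, 47 (54.7%) were also lower in liver Tconv, which is 95.9% of the 49 lower there. Another 3, Cycs, mt-Co1 and mt-Nd1, were lower in Treg and higher in Tconv. The test of the difference itself, the liver against spleen effect in Treg minus that in Tconv, called 51 of 102 members, all more negative in Treg, where 12.4% of all genes were called in that direction and 7.02% in the other. They were 17 of 36 complex I subunits, 1 of 8 assembly factors, 4 of 9 in complex III, 10 of 14 in complex IV, 11 of 17 in ATP synthase, Cycs and 7 of 13 mitochondrial genes, and 0 of 4 in complex II, where 0 had an unadjusted p under 0.05. Atp5g1 differed most by p (-0.63 ± 0.10, adjusted p = 1.98e-05), followed by Cycs (-0.72 ± 0.11, adjusted p = 2.4e-05). Cox7a2l, counted here with complex IV, had a liver against spleen effect of -0.54 ± 0.07 (adjusted p = 3.16e-07) in Treg and -0.08 ± 0.07 (adjusted p = 0.366) in Tconv.

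**Figure D3:**
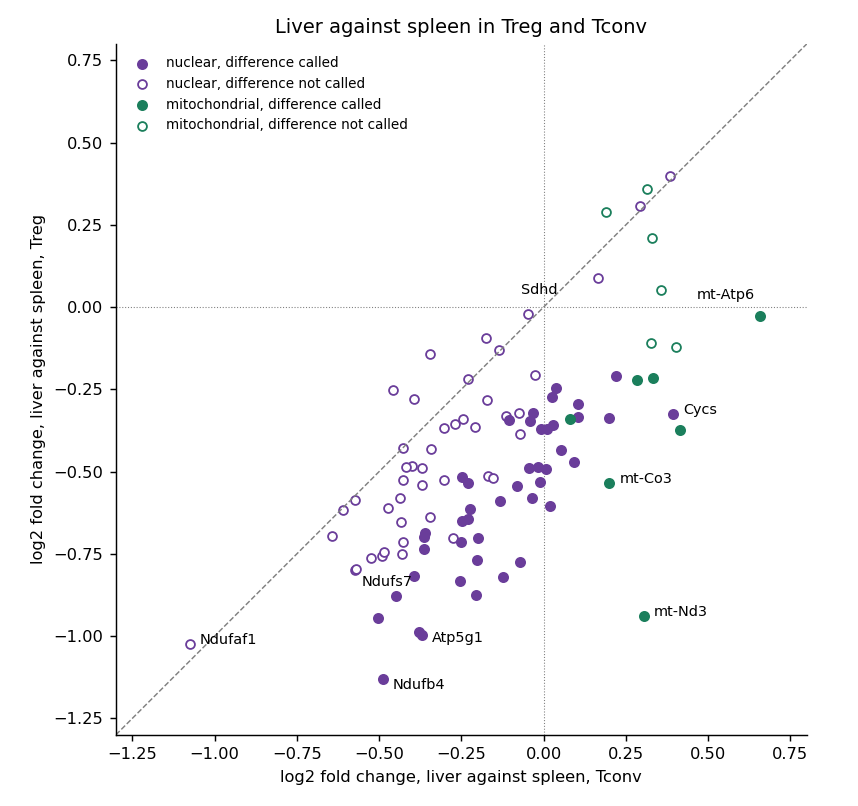
Log2 fold change of liver against spleen in Treg (vertical axis) and in Tconv (horizontal axis) for each tested member, marked by genome. Cycs lies at -0.33 in Treg and 0.39 in Tconv, and Ndufs7 is lower in liver in both, at -0.80 in Treg and -0.57 in Tconv.

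This difference depends on scale and libraries in part: with library totals and no TMM factors 30 members were called (29 more negative in Treg, 1 more positive), and without the spleen controls numbered 2 and 3 there were 23. In the same fits liver against spleen in Treg gave 86 lower and 2 higher without TMM, and 85 lower and 0 higher without those spleen controls. In Tconv it gave 55 lower and 5 higher without TMM, and 44 lower and 4 higher without those controls. Hepatocyte markers moved with tissue in both cell types, as given above. Summed T cell markers were at 3442 to 4303 CPM in liver Treg and 4219 to 4991 CPM in spleen Treg, and at 3190 to 3623 CPM in liver Tconv and 3734 to 4477 CPM in spleen Tconv. Macrophage and granulocyte markers after CCl4 were at 23.7 to 58.6 CPM in liver Treg and 82.5 to 144 CPM in spleen Treg. The part of these lists in the result was not tested.

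Treg and Tconv of the same tissue share the libraries of the tissue comparisons, so the values below are not independent of those above. In liver, 55 of 102 members were lower in Treg than in Tconv and 5 were higher with TMM scaling, where 27.1% of all genes were called lower and 24.7% higher. With library totals and no TMM factors the split was 29 lower and 17 higher, and the median log2 fold change of all genes was then 0.16, against 0.01 with TMM. The nuclear sum had a log2 ratio of -0.22 in Treg against Tconv with TMM, -0.07 without TMM and -0.0014 in TPM. A direction for the nuclear members as a group is therefore not given for this comparison. The mitochondrial sum was lower in liver Treg on all 3 scales, with log2 ratios of -0.66, -0.51 and -0.42. Marker lists moved with cell type as well. Immediate early genes were at 8246 to 10235 CPM in liver Treg and 10776 to 12864 CPM in liver Tconv after CCl4, and at 6502 to 7585 CPM in liver Treg and 9914 to 11277 CPM in liver Tconv of controls. Summed B cell markers were at 18.2 to 32.02 CPM in liver Treg and 6.86 to 11.1 CPM in liver Tconv, and at 24.9 to 43.0 CPM in spleen Treg and 4.17 to 9.26 CPM in spleen Tconv. Endothelial and stellate markers were at 105 to 219 CPM in liver Treg and 187 to 297 CPM in liver Tconv. They were at similar levels in spleen, with 147 to 223 CPM in spleen Treg and 233 to 300 CPM in spleen Tconv. The part of these lists in the results was not tested.

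Named members held their direction on both count scales. mt-Co1 had a lowest, median and highest value of 1521, 1679 and 1871 CPM in liver Treg and 2371, 2909 and 3178 CPM in liver Tconv (log2 fold change -0.73 ± 0.07 SE, adjusted p = 1.13e-09). mt-Co3 (-0.95 ± 0.09, adjusted p = 9.5e-10) and mt-Nd1 (-0.88 ± 0.11, adjusted p = 4.35e-08) were lower in liver Treg, and in all 8 of 13 mitochondrial genes were lower and none higher. The smallest adjusted p was that of Cox7a2l, at 66.6, 78.5 and 87.1 CPM in liver Treg and 104, 134 and 154 CPM in liver Tconv without overlap (log2 fold change -0.77 ± 0.07 SE, adjusted p = 5.37e-10). Cycs (-0.70 ± 0.08, adjusted p = 1.46e-08) and Atp5h, a stalk subunit of ATP synthase (-0.56 ± 0.06, adjusted p = 1.59e-08), were lower too. The 5 higher members were Ndufaf7 (0.66 ± 0.09, adjusted p = 2.55e-07), a methyltransferase needed for complex I assembly, Sdhd (0.34 ± 0.06, adjusted p = 1.72e-05), Ndufb7 (0.36 ± 0.07, adjusted p = 0.000139), Sdhb (0.16 ± 0.05, adjusted p = 0.011) and the testis isoform Cox6b2 (0.83 ± 0.31, adjusted p = 0.0274), whose mean level was 2.92 TPM.

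In spleen 21 members were higher and 9 lower in Treg than in Tconv, of 102, against 19.4% of all genes called higher and 20.3% lower. The share of members called higher was near that of all genes, and the share called lower was smaller. The split changed with the processing, so no direction is given for the members as a group. With a trend on transcript length removed from each library the split was 13 higher and 22 lower, without TMM 32 and 4, and without the spleen controls numbered 2 and 3 it was 11 and 3. Without spleen Treg control 3 alone 18 members were called. The 30 were 9 higher and 2 lower among 36 complex I subunits, 2 and 2 among 8 assembly factors, 2 and 1 among 4 in complex II, 2 and 1 among 9 in complex III, 3 and 1 among 14 in complex IV and 3 and 1 among 17 in ATP synthase, and 1 mitochondrial gene, mt-Co1, was lower. Ndufb8, an accessory membrane-arm subunit, stood at 88.0, 105 and 123 CPM in spleen Treg and 67.2, 79.3 and 88.2 CPM in spleen Tconv as lowest, median and highest, which overlapped (log2 fold change 0.47 ± 0.07 SE, adjusted p = 3.11e-06). Ndufaf7, Ndufb7 and Sdhd, named above for liver, were higher in spleen Treg as well, by 0.46 ± 0.09 (adjusted p = 8.94e-05), 0.37 ± 0.07 (adjusted p = 0.000124) and 0.31 ± 0.06 (adjusted p = 8e-05). Cox7a2l was lower in both tissues (-0.31 ± 0.07, adjusted p = 0.00114 in spleen), and so were Ndufaf4 (-0.49 ± 0.09, adjusted p = 6.04e-05) and mt-Co1 (-0.18 ± 0.07, adjusted p = 0.0443).

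After CCl4, 21 members rose in liver Treg. Of 102 members, 21 were higher and 0 lower than in control liver Treg, where 7.55% of all genes were called higher and 7.34% lower, and the median log2 fold change was 0.23 for the members and -0.00081 for all genes. A further 28 had an unadjusted p under 0.05, a cut for which no share of all genes is given. In 33 members all 5 CCl4 libraries lay above all 3 controls and in 1 they lay below, against 10% and 9.02% of all genes. The 21 were 9 of 36 complex I subunits, 2 of 4 in complex II, 1 of 9 in complex III, 4 of 14 in complex IV and 5 of 17 in ATP synthase. No assembly factor, mitochondrial gene or Cycs was among them; of the 13 mitochondrial genes 0 had an unadjusted p under 0.05 in edgeR.

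**Figure D4:**
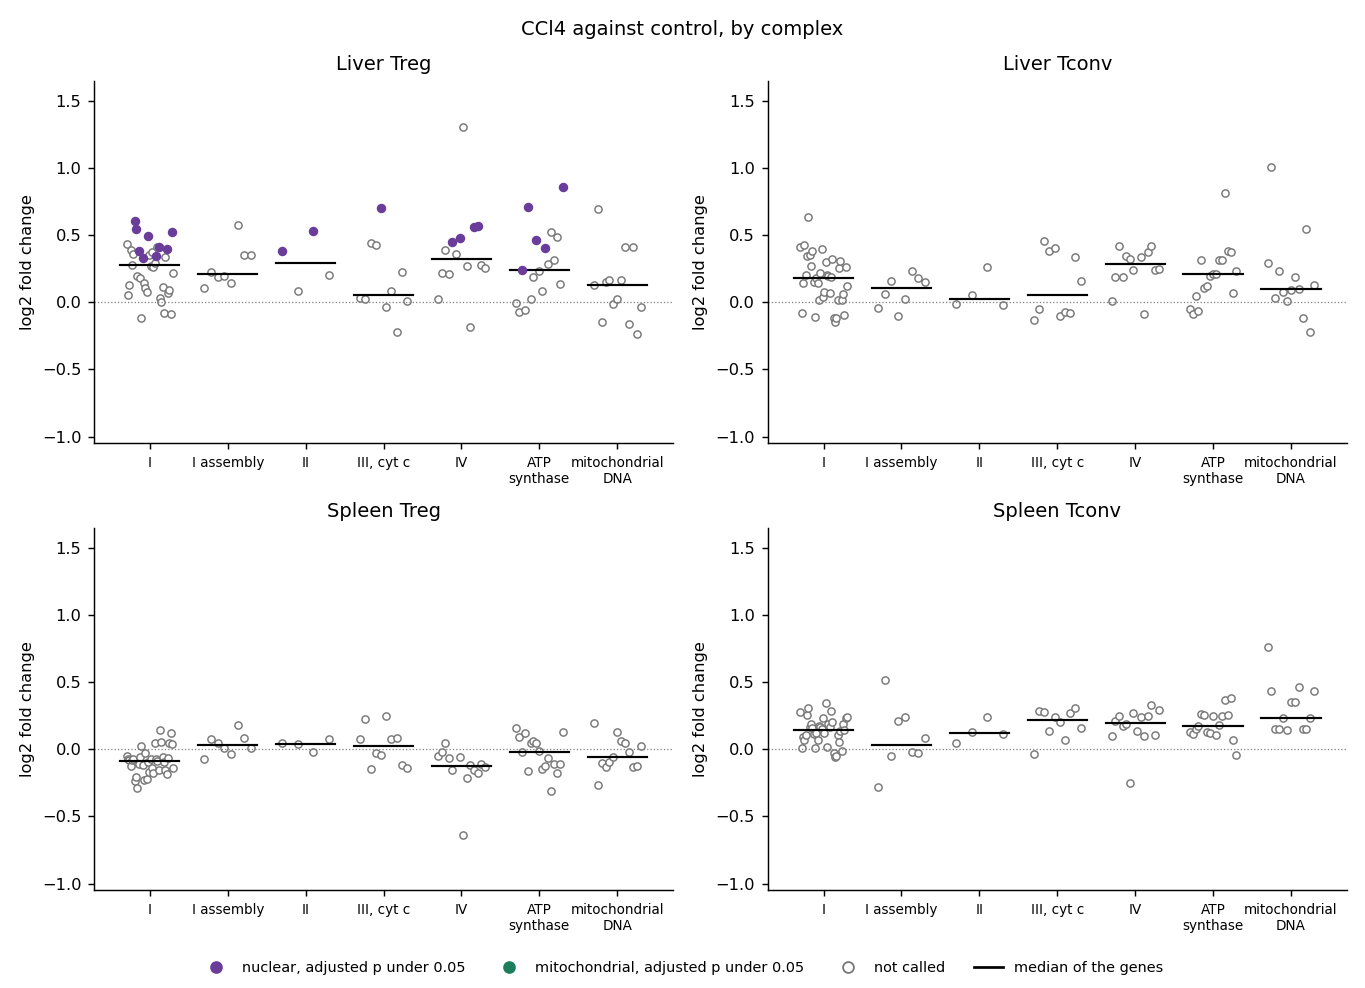
Log2 fold changes after CCl4 in the 4 populations for the 102 tested members by complex and genome; points are members, filled where the adjusted p is under 0.05. Filled points occur in liver Treg only, 21 of them, all above 0.

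Sdha (chr13:74322254-74350280, minus strand), the flavoprotein that oxidises succinate, had 378, 384, 422, 438 and 419.5 CPM in the CCl4 libraries and 279, 324 and 335 CPM in the control libraries of liver Treg. All 5 CCl4 values lay above the 3 controls (log2 fold change 0.38 ± 0.07 SE, adjusted p = 0.000129). Sdhc, which anchors complex II in the membrane, had 56.0, 51.5, 54.3, 67.0 and 55.7 CPM after CCl4 and 38.3, 32.6 and 47.5 CPM in controls (log2 fold change 0.53 ± 0.12 SE, adjusted p = 0.00275).

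In complex I, Ndufv2, a core iron-sulfur subunit of the NADH-oxidising arm, had 82.4, 69.8, 85.7, 91.3 and 71.2 CPM after CCl4 and 54.3, 55.2 and 57.5 CPM in controls (log2 fold change 0.52 ± 0.11 SE, adjusted p = 0.00178). The other complex I subunits that rose were Ndufa3, Ndufa5, Ndufa7, Ndufab1, Ndufb3, Ndufb9, Ndufc2 and Ndufs6, all of them accessory subunits, with log2 fold changes from 0.33 for Ndufab1 to 0.61 for Ndufa3. Uqcrb, a subunit of complex III near its coenzyme Q site, had 87.9, 66.1, 67.3, 94.0 and 69.7 CPM after CCl4 and 45.2, 42.1 and 54.7 CPM in controls. Its groups did not overlap either (log2 fold change 0.70 ± 0.15 SE, adjusted p = 0.00137). In complex IV, Cox7c rose by 0.57 ± 0.13 (adjusted p = 0.00341), Cox7b by 0.56 ± 0.15 (adjusted p = 0.00747), Cox6c by 0.48 ± 0.12 (adjusted p = 0.00688) and Cox6b1 by 0.45 ± 0.13 (adjusted p = 0.0178) on the log2 scale.

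Atp5e (chr2:174461072-174464105, minus strand), the epsilon subunit of the rotor stalk of ATP synthase, had 69.7, 49.5, 67.5, 67.0 and 53.8 CPM after CCl4 and 43.3, 30.7 and 38.9 CPM in controls. The groups did not overlap (log2 fold change 0.71 ± 0.15 SE, adjusted p = 0.000876). Atp5s, known as coupling factor B, was a low member at 10.3, 7.74, 9.07, 8.48 and 8.54 CPM after CCl4 and 4.61, 3.35 and 6.63 CPM in controls (log2 fold change 0.86 ± 0.19 SE, adjusted p = 0.00148). Atp5g2 (0.46 ± 0.12, adjusted p = 0.00795), Atp5j (0.41 ± 0.14, adjusted p = 0.0481) and Atp5c1 (0.24 ± 0.08, adjusted p = 0.034) also rose. Atp5g1 did not pass the test (0.19 ± 0.10, adjusted p = 0.2).

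Of the 21, 8 were called in each of the 8 fits that left out 1 library of these groups: Sdha, Sdhc, Ndufv2, Ndufc2, Uqcrb, Cox7c, Atp5e and Atp5s. The count of calls was 10 without control 2, 15 without control 1 (the library with pancreatic RNA) and 32 without CCl4 library 2. Other lists moved in the same libraries. The summed T cell markers were at 3952 to 4303 CPM after CCl4 and 3442 to 3874 CPM in controls, and the summed endothelial and stellate markers, most of it Pecam1, at 105 to 170 CPM after CCl4 and 203 to 219 CPM in controls. Immediate early genes were at 8246 to 10235 CPM after CCl4 and 6502 to 7585 CPM in controls, and hepatocyte markers at 154 to 524 CPM after CCl4 and 139 to 210 CPM in controls. The part of these lists in the result was not tested. The change ran with transcript length: the median log2 fold change was 0.39 for the 29 nuclear members under 700 bases, 9 of them called, and 0.19 for the 60 longer ones, 12 called. Genes under 700 bases over the whole table had a median of 0.13. With the length trend of each library removed, 28 members were called, 20 of the 21 among them.

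**Figure D5:**
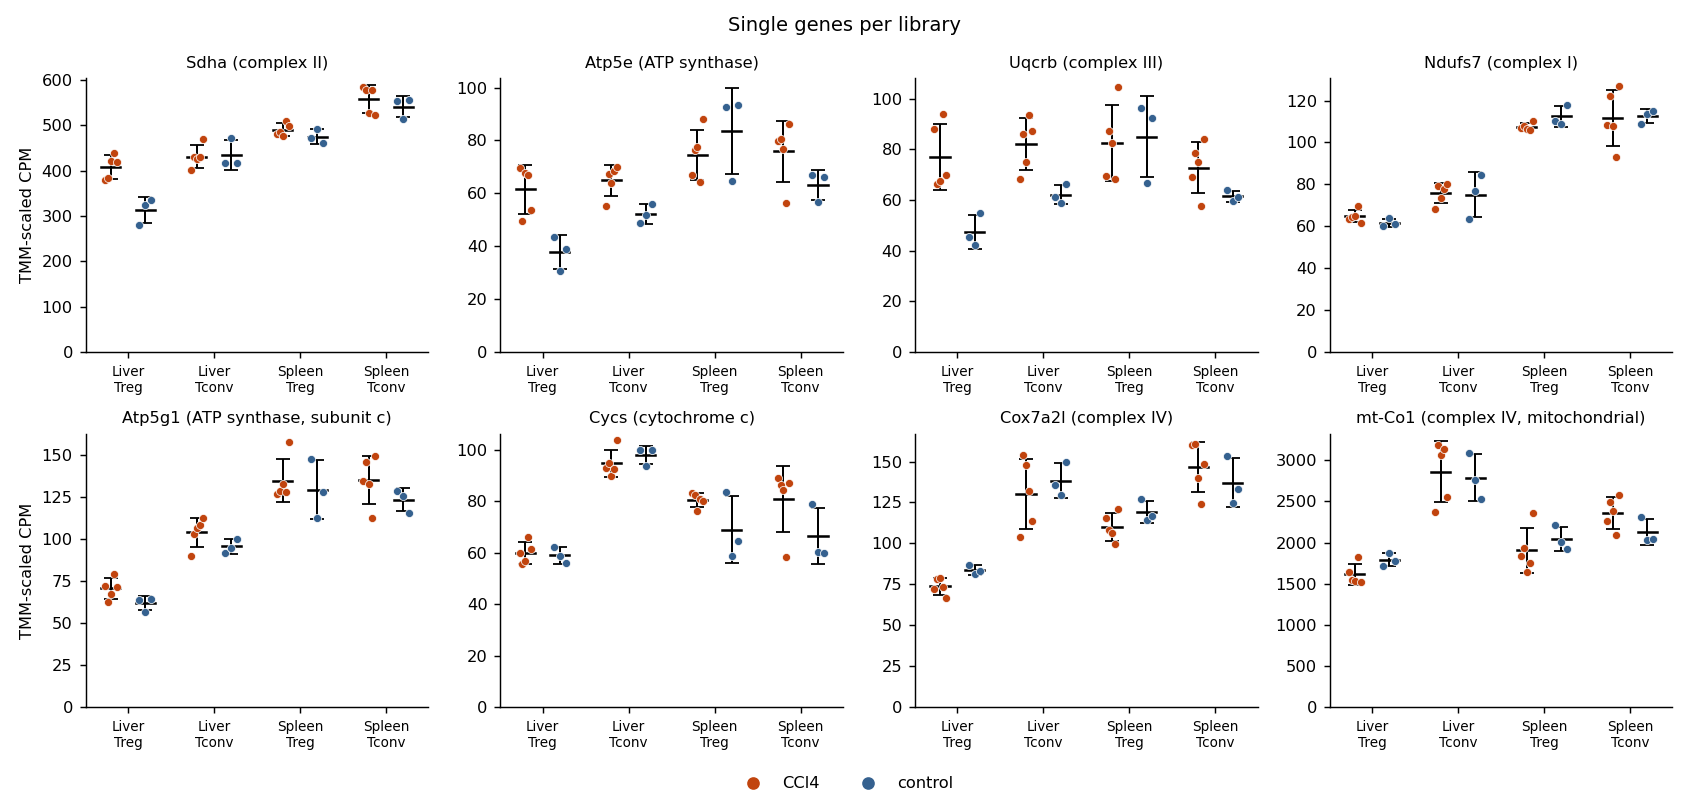
CPM of 8 members in each library by group; points are libraries and bars are group means ± SD. Sdha stands at 378 to 438 CPM in liver Treg after CCl4 and 279 to 335 CPM in liver Treg controls, and Ndufs7 and Atp5g1 are lower in liver than in spleen.

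In the other populations edgeR called 0 of 102 members after CCl4. The shares of all genes below are at the adjusted cut. No share of all genes at an unadjusted p under 0.05 and no median of all genes is given for these populations. The counts at the unadjusted cut and the medians therefore cannot be read as particular to the members. In liver Tconv the median log2 fold change was 0.18, 33 members had an unadjusted p under 0.05, the smallest adjusted p was 0.109, DESeq2 called 2 and limma-voom 0, and 0.326% of all genes were called. In spleen Treg the median was -0.07, 4 members had an unadjusted p under 0.05, DESeq2 and limma-voom called 0, and 1.18% of all genes were called. In spleen Tconv the median was 0.16, 20 had an unadjusted p under 0.05, DESeq2 called 3 and limma-voom 0, 5 were called without spleen Tconv control 1, and 1.07% of all genes were called. Sdha had 401, 430.2, 424, 429.6 and 469 CPM in the CCl4 and 416, 473 and 416 CPM in the control libraries of liver Tconv, which overlapped (-0.01 ± 0.07, adjusted p = 0.965). In spleen Treg Atp5e had 67.0, 76.2, 77.4, 64.1 and 88.1 CPM after CCl4 and 92.5, 64.6 and 93.6 CPM in controls (-0.16 ± 0.14, adjusted p = 0.668).

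A call in liver Treg alone does not show that its effect differed from that in the other populations, so the differences were tested. Between liver Treg and liver Tconv the CCl4 effect differed for 1 member, Sdha (0.40 ± 0.09, adjusted p = 0.0107), where 1.88% of all genes were called more positive and 1.77% more negative in liver Treg. No member was called without liver Treg control 1 or liver Tconv control 2, and 2 were without liver Treg control 3. Between liver and spleen Treg it differed for 8 members, all more positive in liver Treg, where 2.02% of all genes were called more positive and 3.46% more negative. They were Atp5e (0.87 ± 0.20, adjusted p = 0.00744), Cox7c (0.75 ± 0.19, adjusted p = 0.0138), Uqcrb (0.75 ± 0.21, adjusted p = 0.0288), Cox7b (0.72 ± 0.20, adjusted p = 0.0321), Cox6b1 (0.61 ± 0.18, adjusted p = 0.0473), Ndufs6 (0.58 ± 0.18, adjusted p = 0.0478), Ndufc2 (0.56 ± 0.15, adjusted p = 0.0237) and Sdha (0.34 ± 0.09, adjusted p = 0.028). This count rests on single libraries: leaving out 1 library at a time gave 2 to 20 calls, with 2 without liver Treg control 2 or spleen Treg control 3, 3 to 5 without liver Treg CCl4 1, 3 or 4, liver Treg control 1, spleen Treg CCl4 1 or 4 or spleen Treg control 1, and 20 without spleen Treg control 2 or spleen Treg CCl4 5. Only Atp5e was called in all 16 of these fits. Of the spleen Treg libraries in this difference, summed macrophage and granulocyte markers were at 82.5 to 144 CPM after CCl4 and 26.8 to 33.9 CPM in controls, and immediate early genes at 8360 to 9491 CPM after CCl4 and 1268 to 7305 CPM in controls. Hepatocyte markers were at 19.6 to 29.9 CPM after CCl4 and 6.80 to 10.3 CPM in controls, and erythroid markers at 12.9 to 66.0 CPM after CCl4 and 3.96 to 8.18 CPM in controls. Their part in the result was not tested. Between spleen Treg and spleen Tconv, and between liver and spleen Tconv, edgeR called 0 members, with 14 and 4 at an unadjusted p under 0.05, DESeq2 0 and 0 and limma-voom 0 and 0. Of all genes 0.0% and 0.0874% were called at the adjusted cut, and no share is given for the unadjusted one.

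Genes that build or feed the chain were counted in the same way, liver against spleen, where 30.5% of all genes were called lower and 30.1% higher in liver Treg, and 27.7% lower and 27.2% higher in liver Tconv. Of the mitochondrial ribosome, which translates the 13 mitochondrial genes, 70 of 78 were lower and 2 higher in liver Treg (median -0.61), and 65 lower and 2 higher in liver Tconv (median -0.47). Of factors that maintain or transcribe mitochondrial DNA or handle its RNA, 18 of 21 were lower and 1 higher in liver Treg (median -0.52). In liver Tconv 17 of these factors were lower and 2 higher (median -0.66). Among them Polrmt, the mitochondrial RNA polymerase, was lower, with log2 fold changes of -1.19 ± 0.10 (adjusted p = 1.63e-11) in liver Treg and -0.85 ± 0.09 (adjusted p = 1.16e-08) in liver Tconv, and so was Tefm, its elongation factor, with -1.86 ± 0.14 (adjusted p = 3.85e-12) in liver Treg and -1.31 ± 0.14 (adjusted p = 3.76e-09) in liver Tconv. Polg2, an accessory subunit of the DNA polymerase, was higher by 1.92 ± 0.10 (adjusted p = 2.08e-15) in liver Treg and 1.96 ± 0.10 (adjusted p = 1.5e-15) in liver Tconv. Of the complex IV assembly factors 16 of 21 were lower and 1 higher in liver Treg (median -0.51), and 12 lower and 1 higher in liver Tconv (median -0.27). Of the other assembly factors 17 of 22 were lower and 1 higher in liver Treg (median -0.50), and 14 lower and 2 higher in liver Tconv (median -0.30). The complex IV list counts Fastk, and the other list counts Higd1a and Higd2a, so these lists are not strict classes. Of the tricarboxylic acid cycle, which supplies NADH and succinate, 9 of 13 were lower and 2 higher in liver Treg (median -0.20), and 8 lower and 1 higher in liver Tconv (median -0.18).

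Of the coenzyme Q genes and other electron donors, 13 of 21 were lower and 3 higher in liver Treg (median -0.30), and 9 lower and 2 higher in liver Tconv (median -0.20). The largest difference in Treg among all these lists was that of Coq10b, which encodes a coenzyme Q binding protein and was higher by 2.20 ± 0.10 (adjusted p = 1.79e-16) in liver Treg and 2.87 ± 0.11 (adjusted p = 8.75e-19) in liver Tconv. Of the carriers and uncouplers, 10 of 17 were lower and 3 higher in liver Treg (median -0.24), and 11 lower and 2 higher in liver Tconv (median -0.24), and Slc25a3, the phosphate carrier that supplies ATP synthase, was higher by 1.16 ± 0.06 (adjusted p = 1.21e-15) in liver Treg and 0.93 ± 0.06 (adjusted p = 1.7e-13) in liver Tconv. Of the regulators of mitochondrial gene programmes, 6 of 15 were lower and 5 higher in liver Treg (median 0.15), and 6 lower and 5 higher in liver Tconv (median -0.17), shares near those of all genes. The coactivators Pprc1 and Ppargc1b were lower, with log2 fold changes of -1.17 ± 0.09 (adjusted p = 3.2e-12) and -0.92 ± 0.12 (adjusted p = 2.04e-07) in liver Treg and -0.86 ± 0.09 (adjusted p = 1.44e-09) and -0.30 ± 0.12 (adjusted p = 0.0324) in liver Tconv. Members of the list that were higher included Gabpb1, a subunit of GABP, with 0.64 ± 0.05 (adjusted p = 9.31e-12) in liver Treg and 1.07 ± 0.05 (adjusted p = 1.89e-16) in liver Tconv, and Atf4, a transcription factor of the stress response, with 0.55 ± 0.11 (adjusted p = 0.000105) in liver Treg and 0.84 ± 0.11 (adjusted p = 2.03e-07) in liver Tconv.

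After CCl4 in liver Treg, where 7.55% of all genes were called higher and 7.34% lower, 16 of 78 mitochondrial ribosome genes rose and 0 fell (median 0.13). Of the coenzyme Q genes and other electron donors 7 of 21 rose and 1 fell, with Sqor, which passes electrons from sulfide to coenzyme Q, at 0.88 ± 0.17 (adjusted p = 0.000535) and Gpd2, the mitochondrial glycerol-3-phosphate dehydrogenase, at -0.40 ± 0.12 (adjusted p = 0.0251). Of the complex IV assembly genes 6 of 21 rose and 1 fell, and of the other assembly factors 3 of 22 rose and 1 fell. The list of mitochondrial DNA and RNA factors went both ways, with 3 of 21 higher (Slirp, Tefm and Fastkd2) and 3 lower. The lower ones were Tfb2m, a mitochondrial transcription factor (-0.63 ± 0.12, adjusted p = 0.000298), Polg2 (-0.54 ± 0.14, adjusted p = 0.00553) and Polrmt (-0.44 ± 0.13, adjusted p = 0.0253). Of the carriers and uncouplers 2 of 17 rose and 0 fell, of the tricarboxylic acid cycle 0 of 13 were called, and of the regulators 1 of 15 rose, Ppargc1b (0.59 ± 0.18, adjusted p = 0.0208).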

How the data were processed

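The submitters' processing notes name bcl2fastq 2.19, kallisto 0.44.0, the build GRCm38.p6 and DESeq2 (no version). Which annotation release the index used, and any strand setting, is not given in the sources used here. Per the labels' protocols, cells were sorted into Trizol and cDNA made with the Clontech Ultra Low v4 kit and NexteraXT. The deposited tables hold, per the file headers, estimated counts per transcript and TPM, a unit normalized for length.

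Estimated counts were summed per gene through GENCODE M21 names, which matched 116728 of 118489 transcripts (98.5%), and rounded. The remaining 1761 were dropped, with 0.684% to 0.823% of each library. edgeR 4.0.16 (filterByExpr, TMM factors 0.923 to 1.065, 1 quasi-likelihood fit of 8 groups, 24 residual degrees of freedom, Benjamini-Hochberg over 17159 genes, call under 0.05) gave log2 fold changes; SE are approximate, the log2 fold change over the root of F. CPM are TMM-scaled and TPM as deposited. The fit was tested on simulated data. DESeq2 1.42.0 and limma-voom (3.58.1) were alternatives, in R 4.3.3, with DESeq2 size factors, nuclear library sizes, no filter, fewer groups, blocks by sample number, copies added, spleen controls 2 and 3 left out, and each library left out. Removing the length trend and leaving out TMM were chosen after seeing the data. Near-identical copies are genes whose transcripts share at least 50% of their 31-base words with a member.

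Members and gene lists were chosen with earlier results of these data known. Named in each main comparison are members among the 6 called higher and 6 called lower of smallest adjusted p and the 3 largest called changes each way at a mean of at least 5 CPM, with a set of catalytic, isoform and mitochondrial genes. Members given in other comparisons, and single genes of the other lists, were chosen after their values were seen. For differences of effects, members called are named. Promoter windows are RefSeq's. The diet named in the labels belongs to none of these samples.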

Additional observations from a re-analysis of the deposited data

Results flagged for a closer look

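The liver against spleen effect differed between Treg and Tconv for 51 members by the test of the difference (log2, Treg minus Tconv, edgeR). In complex I it was -0.71 for Ndufa3, -0.64 for Ndufb4, -0.63 for Ndufa6, -0.61 for Ndufa5, -0.57 for Ndufb6, -0.54 for Ndufa1, -0.52 for Ndufb8, -0.44 for Ndufa2, -0.43 for Ndufs6, -0.42 for Ndufa7, -0.40 for Ndufv2, -0.39 for Ndufb5, -0.37 for Ndufa12, -0.33 for Ndufb10, -0.33 for Ndufab1, -0.31 for Ndufs8 and -0.27 for Ndufb11. The one assembly factor was Ndufaf8, with -0.67. In complex III it was -0.56 for Uqcrb, -0.50 for Uqcr10, -0.49 for Uqcrh and -0.44 for Uqcr11. In complex IV it was -0.58 for Ndufa4, -0.53 for Cox7c, -0.47 for Cox7b, -0.46 for Cox7a2l, -0.43 for Cox5b, -0.41 for Cox7a2, -0.40 for Cox5a, -0.38 for Cox6c, -0.36 for Cox6a1 and -0.30 for Cox8a. In ATP synthase it was -0.70 for Atp5mpl, -0.63 for Atp5g1, -0.50 for Atp5j, -0.46 for Atp5e, -0.46 for Atp5h, -0.44 for Atp5g2, -0.39 for Atp5l, -0.31 for Atp5f1, -0.29 for Atp5g3, -0.28 for Atp5b and -0.24 for Atp5c1, and for cytochrome c -0.72 for Cycs. Among mitochondrial genes it was -1.24 for mt-Nd3, -0.79 for mt-Nd1, -0.73 for mt-Co3, -0.68 for mt-Atp6, -0.55 for mt-Co1, -0.51 for mt-Co2 and -0.42 for mt-Cytb. All lie below 0.

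The CCl4 effect in liver Treg exceeded that in liver Tconv for Sdha by 0.40 on the log2 scale. It exceeded that in spleen Treg by 0.87 for Atp5e, 0.75 for Uqcrb, 0.75 for Cox7c, 0.72 for Cox7b, 0.61 for Cox6b1, 0.58 for Ndufs6, 0.56 for Ndufc2 and 0.34 for Sdha.

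Among 204 groups of 5 CCl4 libraries, 16 held a library far from the others by Dixon's test, where chance flags about 1 in 20 groups. Spleen Tconv CCl4 library 4 accounted for 9 of them, always as the lowest. Its summed nuclear complex I level was 2295 CPM, against 2791 to 2929.5 CPM in the other 4, and its summed complex IV level 1229 CPM, against 1587 to 1646 CPM in the other 4. Its single members were Atp5h at 164 CPM, Ndufv2 at 77.0 CPM, Ndufb8 at 67.2 CPM, Ndufb10 at 61.0 CPM, Cycs at 58.5 CPM, Ndufs6 at 41.3 CPM and Ndufb4 at 20.3 CPM. Spleen Treg CCl4 library 5 stood apart in Atp5g1 (157 CPM, against 127 to 132 CPM in the other 4) and in Ndufs6 (65.8 CPM, against 47.6 to 52.5 CPM in the other 4). The remaining 5 were Cyc1 at 137 CPM in liver Treg CCl4 library 2, Ndufb7 at 77.8 CPM in liver Tconv CCl4 library 5, Ndufs8 at 95.5 CPM in spleen Treg CCl4 library 3, and Ndufaf7 at 40.3 CPM in spleen Treg CCl4 library 4 and 25.3 CPM in spleen Tconv CCl4 library 1.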

How the results depend on the processing

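The counts of members called moved with the alternatives as follows. CCl4 in liver Treg (21) became 34 with DESeq2 and 10 to 32 when 1 library was left out. In liver Tconv (0) DESeq2 called 2. In spleen Tconv (0) DESeq2 called 3, removing the length trend 4, and leaving out 1 library 0 to 5 (1 without CCl4 library 1 or 4, 5 without control 1). Treg against Tconv in spleen (30) gave 14 without spleen controls 2 and 3, and 18 (without spleen Treg control 3) to 34 with 1 library left out. The difference between liver Treg and liver Tconv in the CCl4 effect (1) gave 0 with only the groups compared, 2 with the length trend removed and 0 to 2 with 1 library left out (0 without liver Treg control 1 or liver Tconv control 2, 2 without liver Treg control 3). That between liver and spleen Treg (8) gave 17 with DESeq2, 18 without TMM, 5 with no filter, 5 with the length trend removed, 4 with only the groups compared, 4 without spleen controls 2 and 3, and 2 to 20 with 1 library left out. The Treg minus Tconv difference in tissue effect (51) gave 30 without TMM, 23 without spleen controls 2 and 3, and 39 to 57 with 1 library left out. The cause was not tested.

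In liver, the nuclear sum of Treg against Tconv was -0.068 without TMM and -0.0014 in TPM on the log2 scale, and the mitochondrial sum -0.42 in TPM. For the CCl4 effect in spleen Treg minus spleen Tconv, Sdhd turned to 0.0031 with the length trend removed and spanned -0.13 to 0.0497 with 1 library left out, and Ndufa9 -0.028 to 0.073; neither was called.

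With 1 library left out, liver against spleen gave 87 to 89 calls in Treg and 52 to 61 in Tconv, and Treg against Tconv in liver 52 to 65. Sample numbers are shared between groups, but the labels do not say that equal numbers mark the same mouse, so they were not taken as pairs. The pairs below join libraries of different groups, so the values are not correlations between replicate libraries of a group. Same-numbered libraries of a treatment correlated at -0.018 to 0.133 (median 0.0329), and 5 of 48 pairs exceeded 0.1. Differently numbered libraries of a treatment correlated at -0.121 to 0.0669 (median -0.0131), and 0 of 156 pairs exceeded 0.1. Whether same-numbered libraries share a mouse is therefore not settled. With the sample number as a replicate block CCl4 in liver Treg gave 15 calls. This block also joins control and CCl4 libraries of equal number, which are not the same mouse, so it does not test that pairing. Across treatments, same-numbered libraries correlated at a median of -0.0139, and 0 of 48 pairs exceeded 0.1. The other alternatives for liver against spleen in Treg gave 81 to 86 lower members.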
